A study of Mus musculus with 14 samples.

Results

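Border-associated macrophages are the resident macrophages of the surfaces of the brain, the meninges, the spaces around vessels and the choroid plexus, as opposed to the microglia of the parenchyma. The 7 genes described here are commonly used to tell them from microglia: Mrc1, Cd163, Stab1, Lyve1, Cbr2, F13a1 and Ms4a7. They were chosen by symbol, each symbol was matched to its Ensembl identifier in the GENCODE M21 annotation, and all 7 were found among the 55536 Ensembl genes of the count table. All 7 also passed the filter of at least 10 counts over all libraries that left 38070 genes for testing. The filter was applied to the total over all groups.

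RNA was taken from whole hippocampi of mice aged 10 months, perfused before dissection, with 1 library per mouse. MRL mice (n = 4) are B6.MRL-Faslpr/J mice, a model of lupus with neuropsychiatric signs, and carry the lpr mutation of Fas, the death receptor that limits lymphocyte numbers. MRL-IRAK4-KD mice (n = 4) carry lpr together with a kinase-dead form of IRAK4, the kinase that passes on signals from toll-like and interleukin-1 receptors. The controls were C57BL6/J mice (n = 3), with neither mutation, and IRAK4-KD mice (n = 3), labelled as carrying the kinase-dead form alone. Both lpr groups are on the C57BL/6 background, both mutations are present in every cell of the animal, and nothing in the labels ties mice of different groups to a litter or a day. The tissue is bulk and was not sorted, so that fewer macrophages and less RNA per macrophage cannot be told apart in any value below.

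Much of the biology of border-associated macrophages is the uptake of material from blood and cerebrospinal fluid, and 4 of the genes encode receptors for it. Mrc1 encodes the mannose receptor CD206, which takes up glycoproteins, and Cd163 encodes the receptor for complexes of haemoglobin with haptoglobin. Stab1 encodes stabilin-1, a large scavenger receptor that is also made by some endothelial cells. Lyve1 encodes a hyaluronan receptor that lymphatic endothelium shares with perivascular and meningeal macrophages. The remaining 3 have other roles. F13a1 encodes the A chain of coagulation factor XIII, Cbr2 a carbonyl reductase, and Ms4a7 a membrane protein of the MS4A family.

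A pair of libraries touch the values of these genes and are described first. MRL-IRAK4-KD replicate 4 stood apart, with a score of 152 on the first principal component (40.5% of the variance of log2 CPM) against -28.4 to 8.82 for the other 13 libraries. Its choroid plexus epithelial genes summed to 7800 CPM against 67.4 to 1870 elsewhere, its RNA input by Qubit was 27.4 against 39.6 to 43.7 in the units of the sequencing sheet, and its library measured 13.48 nM against 23.49 to 27.55. The library labelled IRAK4-KD replicate 3 had the Fas transcripts of lpr mice, with 0 counts of Fas-201 and 514 of Fas-204. The 8 MRL and MRL-IRAK4-KD libraries had 0 of the former and 268 to 964 of the latter, and the remaining 5 libraries had 345 to 584 and 0 to 7. The counts do not report on the kinase-dead mutation. Differences of the 7 genes that move most with either library, and the counts of the wider macrophage lists, are therefore also given without it. CPM here means counts scaled to the library's TMM-adjusted total, and the total counts were between 279941472 and 572398312 per library.

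Marker genes of both kinds of macrophage were detected, though bulk counts do not show which cells made the RNA. The microglial genes P2ry12 and Tmem119 had 20.8 to 45 and 15 to 31.8 CPM, and Csf1r, the receptor that macrophages need to survive, had 66.8 to 114. Of the defining genes of border-associated macrophages outside the 7, Pf4, a chemokine they make, had 0.241 to 0.77 CPM, and Folr2, a folate receptor, had 0.164 to 1.35. The hippocampal marker Prox1, of the dentate gyrus, had 55.9 to 125 CPM. Ttr of choroid plexus epithelium ranged from 48.5 to 7630 CPM and Dcn of meningeal fibroblasts from 28.8 to 99. These marker genes of border tissue were thus detected in every library, and how much border tissue each dissection held was not measured.

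Per length of exon, Stab1 had the highest level of the 7 genes, with a median over the 14 libraries of 1.25 CPM per kb. Mrc1 (0.573) and Cbr2 (0.564) followed at nearly the same level, then F13a1 (0.364), Lyve1 (0.293) and Cd163 (0.292), and Ms4a7 had the lowest level (0.0878). The ranges over libraries of neighbours in this order overlapped except those of Cd163 and Ms4a7. In summed CPM the 7 genes had 22.2 to 36.9 in MRL, 20.1 to 29.3 in MRL-IRAK4-KD, 17 to 26 in C57BL6/J and 14.2 to 20.2 in IRAK4-KD libraries, and Stab1 made up 51.2 to 64.4% of the sum. From the lowest to the highest library Cbr2 varied most, by 7.87-fold, followed by Lyve1 (5.34-fold) and Mrc1 (4.70-fold), while Cd163 (2.39-fold) and Stab1 (2.17-fold) varied least. This order rests on the libraries that stand apart. Without MRL-IRAK4-KD replicate 4 the range of Cbr2 was 4.52-fold and that of Lyve1 3.38-fold, and without both libraries that of Cbr2 was 2.36-fold, that of Mrc1 3-fold and that of F13a1, then the widest, 3.84-fold.

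**Figure D1:**
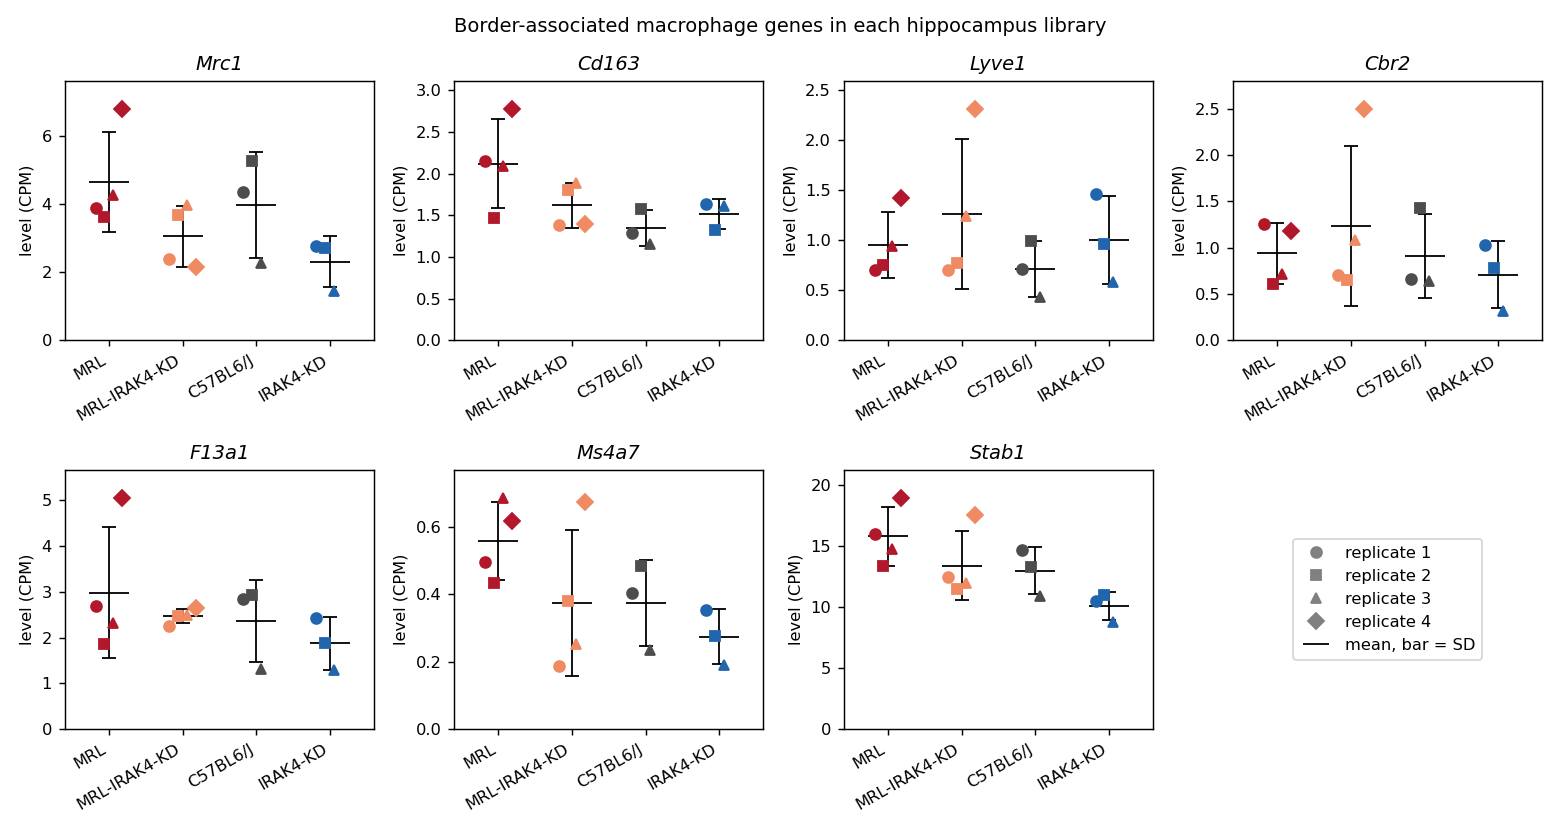
Level of each of the 7 genes in CPM (y axis of each panel, from 0) in every library of the 4 groups (x axis), with points for mice and bars for the mean ± SD. The library labelled IRAK4-KD replicate 3 was the lowest of all 14 for Mrc1, Cbr2, F13a1 and Stab1, and MRL-IRAK4-KD replicate 4 was the highest for Lyve1 and Cbr2.

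Mrc1 (ENSMUSG00000026712.3, chr2:14229392-14332057 of mm10, plus strand) had 3.88, 3.63, 4.28 and 6.80 CPM in the MRL mice and 2.40, 3.67, 3.97 and 2.15 CPM in the MRL-IRAK4-KD mice. In the C57BL6/J mice it had 4.35, 5.28 and 2.26 CPM, and in the IRAK4-KD mice 2.77, 2.70 and 1.45 CPM. Mean levels were 4.65 ± 1.46 (SD, n = 4), 3.05 ± 0.906 (n = 4), 3.97 ± 1.55 (n = 3) and 2.31 ± 0.746 (n = 3) CPM in that order. Both groups with the kinase-dead form thus had lower means than the group of the same Fas genotype by label without it, but the groups overlapped in each of these comparisons. The mean of MRL mice was 1.53 times that of MRL-IRAK4-KD mice (95% interval 0.959 to 2.43), a log2 difference of 0.61 ± 0.31 (SE; edgeR, adjusted p = 0.446). Between IRAK4-KD and C57BL6/J mice the log2 difference was -0.78 ± 0.36, 0.582 times (0.340 to 0.996), below the unadjusted threshold of 0.05 but at an adjusted p of 1. Without the library labelled IRAK4-KD replicate 3 the latter Mrc1 difference was -0.53 and without C57BL6/J replicate 2 it was -0.51, neither below the unadjusted threshold. Without MRL replicate 4, the highest library, the difference of Mrc1 between the lpr groups was 0.38 on the log2 scale (edgeR, adjusted p = 0.703), and leaving out MRL-IRAK4-KD replicate 4 gave 0.48 (adjusted p = 0.701).

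Cd163 (ENSMUSG00000008845.9, chr6:124304656-124330527, plus strand) had 2.15, 1.47, 2.09 and 2.78 CPM in MRL, 1.38, 1.81, 1.89 and 1.4 in MRL-IRAK4-KD mice. It had 1.29, 1.58 and 1.16 CPM in C57BL6/J, and 1.64, 1.32 and 1.61 in IRAK4-KD mice. In 3 of 4 MRL mice the Cd163 level was above every one of the other 10 libraries, while MRL replicate 2 lay among them. MRL mice had 2.12 ± 0.537 CPM (SD, n = 4) against 1.35 ± 0.213 (n = 3) in C57BL6/J mice, 1.58 times as much (95% interval 1.13 to 2.21). On the log2 scale this was 0.66 ± 0.22 (edgeR, adjusted p = 0.778), below 0.05 before adjustment. Against MRL-IRAK4-KD mice (1.62 ± 0.269 CPM, n = 4) the log2 difference was 0.39 ± 0.21 (edgeR, adjusted p = 0.448). Cd163 differed from C57BL6/J mice by 0.18 in IRAK4-KD mice (1.52 ± 0.178 CPM, n = 3; adjusted p = 1). In the interaction test Cd163 had the smallest p of the 7 genes: the difference between the groups with and without lpr was larger by 0.57 ± 0.31 on the log2 scale with intact IRAK4 (edgeR, adjusted p = 0.914).

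Stab1 (ENSMUSG00000042286.13, chr14:31139013-31168641, minus strand) had 16, 13.4, 14.8 and 19 CPM in MRL and 12.5, 11.5, 12 and 17.6 CPM in MRL-IRAK4-KD mice. In C57BL6/J mice it had 14.7, 13.3 and 10.9 CPM, and in IRAK4-KD mice 10.5, 11.0 and 8.76 CPM. Group means were 15.8 ± 2.39 (SD, n = 4), 13.4 ± 2.82 (n = 4), 13 ± 1.93 (n = 3) and 10.1 ± 1.17 (n = 3) CPM. All 4 MRL-IRAK4-KD mice were above all 3 IRAK4-KD mice. For 8.74% of all genes tested these groups did not overlap, in either direction. The ratio was 1.33 (95% interval 1.03 to 1.72), a log2 difference of 0.41 ± 0.17 (edgeR, adjusted p = 0.553). Without MRL-IRAK4-KD replicate 4 this Stab1 difference was 0.25 (edgeR, adjusted p = 0.615; the groups still did not overlap, as for 15.2% of all genes), without the library labelled IRAK4-KD replicate 3 it was 0.32 (adjusted p = 0.891), and without both it was 0.16 (adjusted p = 0.87). MRL and MRL-IRAK4-KD mice overlapped through MRL-IRAK4-KD replicate 4 alone, and differed by 0.24 ± 0.16 on the log2 scale (edgeR, adjusted p = 0.522). The other Stab1 differences were 0.29 between MRL and C57BL6/J mice (edgeR, adjusted p = 0.935) and -0.37 between IRAK4-KD and C57BL6/J mice (adjusted p = 1).

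The transcript counts of Stab1 in MRL-IRAK4-KD replicate 4 were unlike those in the other libraries. Transcripts annotated as retained introns, which are not coding, held 45.2% of its Stab1 counts (2472 of 5463) and 4.54 to 16.5% in the other 13 libraries. For all genes together that share was 2.76 to 3.57% in every library. Counting coding transcripts only, a choice made after the transcript table was seen, Stab1 had 15.3, 12.3, 13.8 and 17.9 CPM in MRL mice and 11.7, 10.7, 11.4 and 9.63 CPM in MRL-IRAK4-KD mice. These groups did not overlap, which held for 6.77% of the 18858 genes tested in this way. Coding Stab1 differed by 0.43 ± 0.15 on the log2 scale (edgeR, adjusted p = 0.349) and was the 1 gene of the 7 below 0.05 before adjustment, as were 12.9% of those genes. On coding transcripts MRL-IRAK4-KD and IRAK4-KD mice (9.5, 9.9 and 8.12 CPM) did overlap, where 9.99% of those genes did not, with a Stab1 difference of 0.22 (edgeR, adjusted p = 0.574). Retained-intron transcripts also held 16.1 to 46.9% of the counts of Cd163 and 3.77 to 51.8% of those of Ms4a7, but at most 2.37% for Mrc1, 5.56% for Lyve1, 4.24% for Cbr2 and 0% for F13a1.

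**Figure D2:**
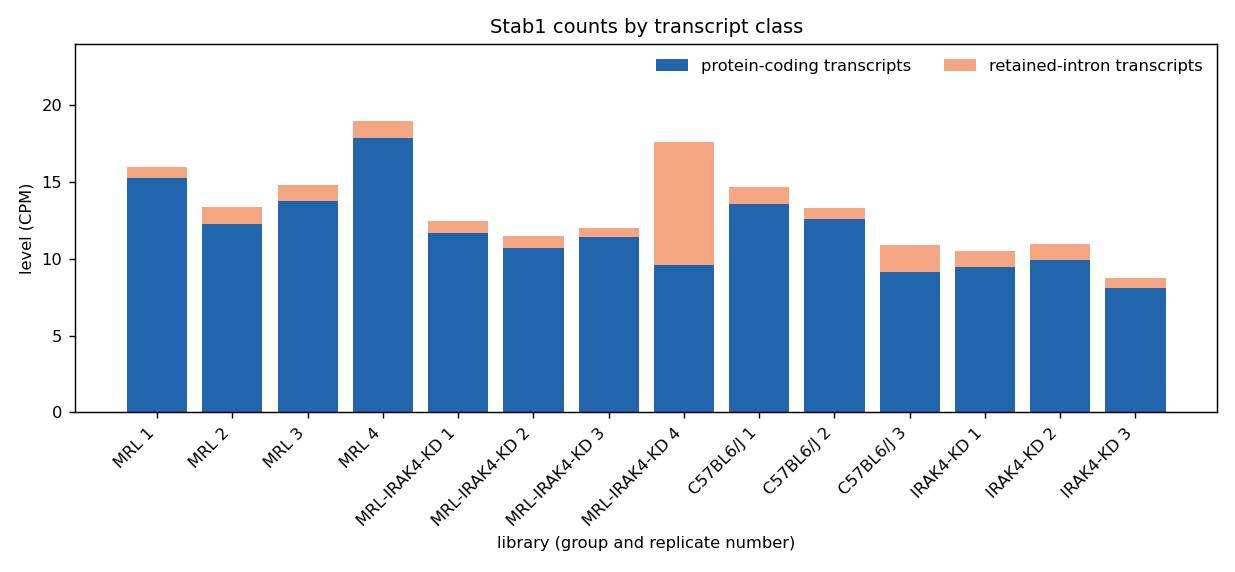
Stab1 level in CPM (y axis, from 0) in each of the 14 libraries (x axis), with stacked bars for coding and for retained-intron transcripts. The retained-intron share was 45.2% in MRL-IRAK4-KD replicate 4 and 4.54 to 16.5% in the other libraries.

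Lyve1 (ENSMUSG00000030787.4, chr7:110850607-110863239, minus strand) had 0.697, 0.756, 0.940 and 1.42 CPM in MRL and 0.700, 0.769, 1.24 and 2.31 CPM in MRL-IRAK4-KD mice. In C57BL6/J mice it had 0.712, 0.988 and 0.433 CPM, and in IRAK4-KD mice 1.46, 0.963 and 0.582 CPM. Every pair of groups overlapped, and the highest level was that of MRL-IRAK4-KD replicate 4. Unlike the other receptors, Lyve1 had a higher mean in each group with the kinase-dead form, 1.26 ± 0.744 CPM (SD, n = 4) against 0.953 ± 0.328 in MRL mice (n = 4), and 1.00 ± 0.442 (n = 3) against 0.711 ± 0.278 in C57BL6/J mice (n = 3). The log2 difference of MRL from MRL-IRAK4-KD mice was -0.40 ± 0.41 (95% interval -1.29 to 0.49; edgeR, adjusted p = 0.701), and it was 0.08 without MRL-IRAK4-KD replicate 4. Between IRAK4-KD and C57BL6/J mice it was 0.50 (adjusted p = 1), and 0.77 without the library labelled IRAK4-KD replicate 3 (adjusted p = 1). The genes of lymphatic endothelium, which also makes Lyve1, summed to 42.2 to 60 CPM in MRL, 39.5 to 56 in MRL-IRAK4-KD, 51.4 to 81.9 in C57BL6/J and 41.9 to 58.6 CPM in IRAK4-KD libraries. Most of this sum came from Nr2f2 (group means 29.1 to 46 CPM) and Pdpn (11.9 to 13.9), so it says little about the others. Of the 6 genes, 5 were higher in MRL than in MRL-IRAK4-KD mice, against 50.2% of all genes. Flt4 was at 1.04 and Ccl21a, with group means of at most 0.403 CPM, at 2.57 (edgeR, adjusted p = 0.335 for each).

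Cbr2 (ENSMUSG00000025150.10, chr11:120729489-120732114, minus strand) shared its highest library, MRL-IRAK4-KD replicate 4, with Lyve1. It had 1.26, 0.607, 0.712 and 1.18 CPM in MRL and 0.706, 0.649, 1.08 and 2.5 CPM in MRL-IRAK4-KD mice. In C57BL6/J mice it had 0.663, 1.43 and 0.642 CPM, and in IRAK4-KD mice 1.03, 0.786 and 0.317 CPM. All pairs of groups overlapped, and both the highest and the lowest level came from the libraries that stand apart. On the log2 scale MRL differed from MRL-IRAK4-KD mice by -0.39 ± 0.48 (95% interval -1.41 to 0.63; edgeR, adjusted p = 0.751), and it was 0.21 without MRL-IRAK4-KD replicate 4. The difference of 0.80 ± 0.52 between MRL-IRAK4-KD and IRAK4-KD mice (edgeR, adjusted p = 0.589) was 0.20 without that library and -0.16 without both.

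F13a1 (ENSMUSG00000039109.16, chr13:36867178-37050244, minus strand) had 1.85 to 5.06 CPM in MRL, 2.26 to 2.64 in MRL-IRAK4-KD, 1.32 to 2.92 in C57BL6/J and 1.29 to 2.43 CPM in IRAK4-KD mice. The highest level was that of MRL replicate 4, 5.06 CPM, against 1.85, 2.31 and 2.69 in the other MRL mice. F13a1 in MRL differed from that in MRL-IRAK4-KD mice by 0.27 ± 0.32 on the log2 scale (edgeR, adjusted p = 0.739), and by -0.09 without MRL replicate 4. Ms4a7 (ENSMUSG00000024672.11, chr19:11321039-11336146, minus strand) had 0.494, 0.434, 0.686 and 0.617 CPM in MRL and 0.186, 0.379, 0.253 and 0.673 CPM in MRL-IRAK4-KD mice, from 90 to 325 counts per library over all groups. It had 0.403, 0.484 and 0.234 CPM in C57BL6/J and 0.354, 0.275 and 0.191 CPM in IRAK4-KD mice. As for Stab1, 3 of the 4 MRL-IRAK4-KD mice were below every MRL mouse and replicate 4 was not. Ms4a7 differed by 0.59 ± 0.38 on the log2 scale (95% interval -0.24 to 1.41; edgeR, adjusted p = 0.517), and by 1.04 ± 0.33 without MRL-IRAK4-KD replicate 4 (edgeR; adjusted p = 0.388). Without that library the lpr groups did not overlap for 2 of the 7 genes, Ms4a7 and Stab1, against 7.99% of all genes, and the same 2 were below 0.05 before adjustment, against 8.52%.

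MRL and MRL-IRAK4-KD mice were compared to ask what the kinase-dead form does in mice with lpr. None of the 7 genes passed an adjusted p of 0.05, which 0.0972% of all genes did, and 0 of 7 were at an unadjusted p below 0.05, against 11.4% of all genes. 5 of the 7 were higher in MRL mice by the edgeR log2 difference (Mrc1, Cd163, F13a1, Ms4a7 and Stab1), against 50.2% of all genes. The median difference of the 7 was 0.27 against 0 for all genes. All 7 overlapped between the groups, as did all but 5.26% of genes. The exact 2-sided permutation test of log2(CPM + 0.1), whose smallest possible p with 4 against 4 mice is 0.0286, gave p = 0.143 for Mrc1, Cd163 and Ms4a7, 0.229 for Stab1 and 0.6 to 0.771 for the others. With another tool, limma-voom with sample quality weights, which gives less weight to a library that varies more, 2 of the 7 had an unadjusted p below 0.05, against 15.4% of all genes under that fit: Ms4a7 at 1.18 ± 0.28 (adjusted p = 0.0727) and Stab1 at 0.37 ± 0.11 (adjusted p = 0.138). With DESeq2 0 of the 7 passed the adjusted threshold.

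The comparison of MRL with C57BL6/J mice asks what lpr does with intact IRAK4. All 7 genes were higher in MRL mice by the edgeR log2 difference, against 48.1% of all genes, with a median of 0.33 against 0. The differences ran from 0.04 for Cbr2 to 0.66 for Cd163. None passed the adjusted threshold, and neither did any of the 38070 genes (0%). Cd163 was the 1 gene of the 7 at an unadjusted p below 0.05, against 5.55% of all genes, and the groups overlapped for all 7, as for all but 9.63% of genes. Its difference stayed between 0.52 and 0.90 over 26 alternative settings, always at an unadjusted p below 0.05, with adjusted p between 0.19 and 1. Ms4a7 had the next largest difference, 0.58 (edgeR, adjusted p = 0.976). For Mrc1 the value was 0.23, and 0 without MRL replicate 4.

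The comparison of IRAK4-KD with C57BL6/J mice asks what the kinase-dead form does without lpr. 2 of the 7 genes, Cd163 and Lyve1, were higher in IRAK4-KD mice by the edgeR log2 difference and 5 were lower, with 47% of all genes higher. The median difference was -0.36 against -0.01. None passed the adjusted threshold (0.147% of all genes did). Mrc1 alone was at an unadjusted p below 0.05, against 3.8% of all genes, and the groups overlapped for all 7, as for all but 11.2% of genes. The lower means of Mrc1, Cbr2, F13a1, Ms4a7 and Stab1 all included the library labelled IRAK4-KD replicate 3. Without it they were -0.53, -0.01, -0.13, -0.24 and -0.27 in that order.

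The comparison of MRL-IRAK4-KD with IRAK4-KD mice asks what lpr does where both groups carry the kinase-dead form. All 7 genes were higher in MRL-IRAK4-KD mice by the edgeR log2 difference, against 49.4% of all genes, with a median of 0.40 against 0. None passed the adjusted threshold (0.0735% of all genes did), and Stab1 alone was at an unadjusted p below 0.05, against 8.63% of all genes. Both libraries that stand apart enter this comparison. Without both, the values were 0.29 for Mrc1, 0.19 for Cd163, 0.16 for F13a1 and 0.16 for Stab1, and -0.43 for Lyve1, -0.16 for Cbr2 and -0.21 for Ms4a7. The interaction, which asks whether the lpr difference depends on the kinase, was between -0.75 ± 0.73 for Cbr2 and 0.57 ± 0.31 for Cd163, above 0 for 3 of 7 genes and for 49.7% of all genes. For none of the 7 did it pass the adjusted threshold (edgeR, adjusted p 0.914 to 1; 0.00263% of all genes passed) and 0 of 7 were at an unadjusted p below 0.05, against 4.17%. Every group enters more than 1 of these comparisons, so their values are given side by side and are not independent.

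**Figure D3:**
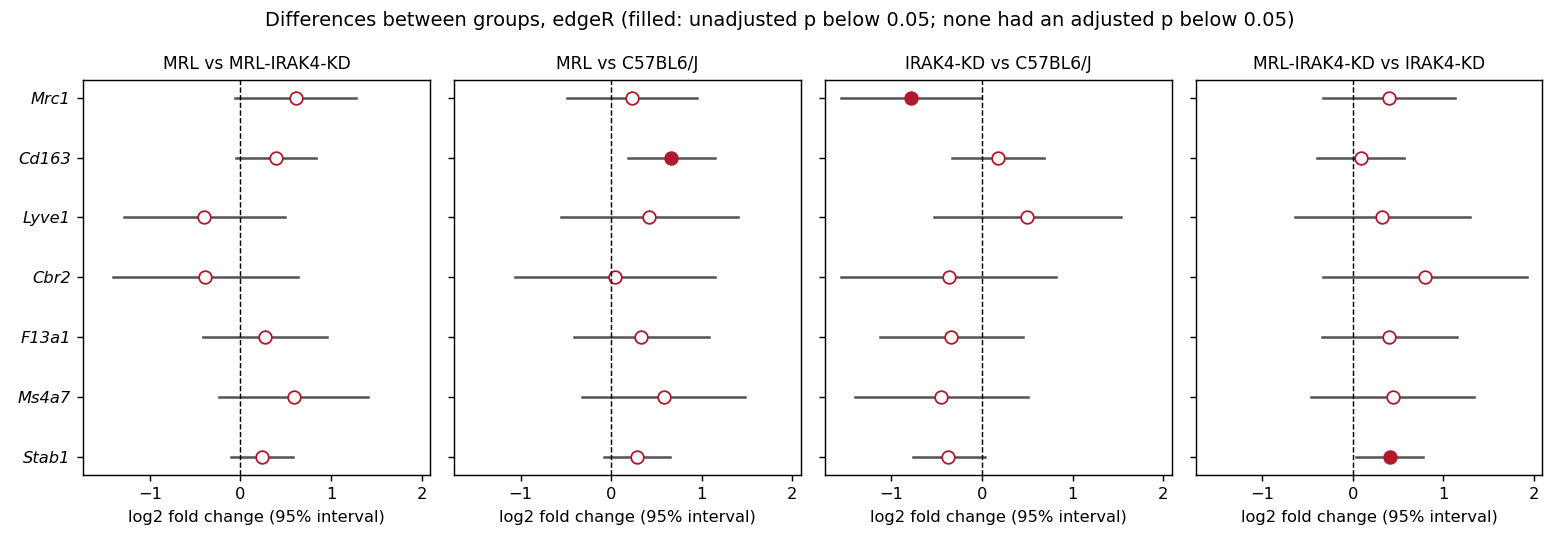
Log2 fold change of each of the 7 genes (y axis, by gene) with its 95% interval (x axis) from edgeR in the 4 comparisons of groups, filled where the unadjusted p was below 0.05. Filled points are Cd163 for MRL against C57BL6/J (0.66), Mrc1 for IRAK4-KD against C57BL6/J (-0.78) and Stab1 for MRL-IRAK4-KD against IRAK4-KD (0.41) mice.

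Across the 14 libraries the 21 pairs of the 7 genes had Pearson r between 0.20 and 0.81 (log2 CPM), and between 0.30 and 0.87 without MRL-IRAK4-KD replicate 4. Ms4a7 and Stab1 had the highest r (0.81, Spearman rho = 0.82; permutation p = 8e-04 and 0.0011, adjusted over the 21 pairs 0.0084 and 0.0231). Without the 2 libraries farthest from the median r was 0.83, and with each group's mean removed it was 0.72. Mrc1 and F13a1 had r = 0.80 and rho = 0.75 (permutation p = 0.001 and 0.0025, adjusted 0.0084 and 0.0231), with r = 0.53 without the 2 farthest libraries and 0.81 with group means removed. Lyve1 and Cbr2 had r = 0.77 and rho = 0.68 (permutation p = 0.0016 and 0.0097, adjusted 0.0084 and 0.0407), with 0.64 without the 2 farthest and 0.85 with group means removed. F13a1 and Stab1 had r = 0.77 and rho = 0.67 (permutation p = 0.0015 and 0.0089, adjusted 0.0084 and 0.0407), with 0.51 without the 2 farthest and 0.74 with group means removed. The receptors Mrc1 and Lyve1 had r = 0.21 and rho = 0.29 (permutation p = 0.48 and 0.313, adjusted 0.486 and 0.313). That pair depended on MRL-IRAK4-KD replicate 4, which had the highest Lyve1 and the lowest Mrc1 of its group. Without it Mrc1 had r = 0.55 with Lyve1 and 0.71 with Cbr2, against 0.33 for Cbr2 with it, and its r with Stab1 was 0.86 against 0.63 and with Ms4a7 0.82 against 0.60. All values come from the same libraries and share their depth and tissue composition.

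**Figure D4:**
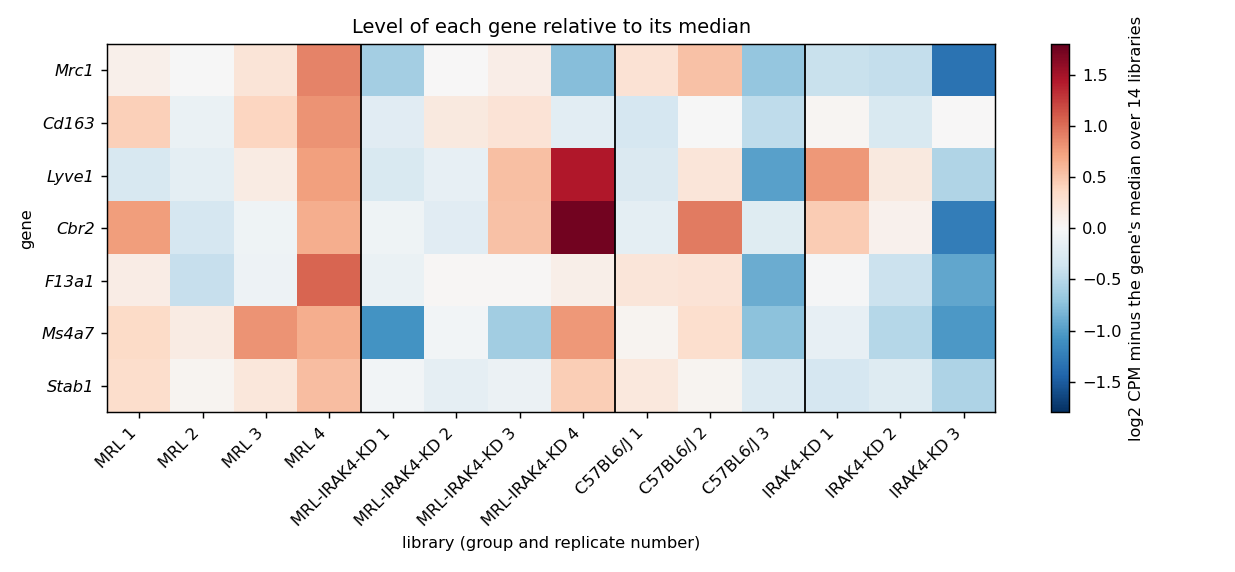
Heat map of log2 CPM of each of the 7 genes (rows) in each of the 14 libraries (columns, by group), as the difference from the gene's median over all libraries (colour scale in log2 units). MRL replicate 4 was the highest library for Mrc1, Cd163, F13a1 and Stab1, while MRL-IRAK4-KD replicate 4 was the highest for Lyve1 and Cbr2 and the lowest of its group for Mrc1.

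The sequences upstream of the genes of the 2 most closely correlated pairs are shown because the members of each pair varied together. They are the part of the 250 bases before the RefSeq start (GRCm38.p6, the mm10 assembly) that lies outside the annotated gene, read 5′ to 3′ on the strand of the gene. Capitals mark GAGGAA, the core that the myeloid factor PU.1 binds, or TTCCTC, the same core on the other strand. The windows are those of Mrc1 at chr2:14229164-14229391 (plus strand), F13a1 at chr13:37050245-37050494, Stab1 at chr14:31168642-31168891 and Ms4a7 at chr19:11336147-11336396 (all minus strand).
Mrc1: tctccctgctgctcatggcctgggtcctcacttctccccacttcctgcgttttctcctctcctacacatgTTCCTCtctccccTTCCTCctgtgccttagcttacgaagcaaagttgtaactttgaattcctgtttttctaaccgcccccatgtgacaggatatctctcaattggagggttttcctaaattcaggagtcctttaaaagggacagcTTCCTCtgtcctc
F13a1: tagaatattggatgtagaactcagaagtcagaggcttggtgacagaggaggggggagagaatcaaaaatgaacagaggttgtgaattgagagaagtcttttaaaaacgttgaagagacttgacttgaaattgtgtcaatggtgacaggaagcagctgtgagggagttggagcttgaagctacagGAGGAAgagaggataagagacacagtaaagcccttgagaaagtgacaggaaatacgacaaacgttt
Stab1: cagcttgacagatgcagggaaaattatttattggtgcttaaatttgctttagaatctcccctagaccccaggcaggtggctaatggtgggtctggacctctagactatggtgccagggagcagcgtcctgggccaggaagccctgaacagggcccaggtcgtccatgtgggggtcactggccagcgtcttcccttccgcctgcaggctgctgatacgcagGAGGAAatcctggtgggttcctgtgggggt
Ms4a7: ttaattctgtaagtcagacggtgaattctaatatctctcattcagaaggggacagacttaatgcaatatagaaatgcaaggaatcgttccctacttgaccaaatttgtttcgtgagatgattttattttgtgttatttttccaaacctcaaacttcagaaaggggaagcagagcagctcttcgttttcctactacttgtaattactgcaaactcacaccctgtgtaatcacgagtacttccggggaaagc

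The PU.1 core began 180, 167 and 35 bases before the start of Mrc1, 66 before that of F13a1 and 30 before that of Stab1, and was not among the letters of the Ms4a7 window. RefSeq windows were matched for 6 of the 7 genes, with 8 windows in all, and Lyve1 was not matched. Counted over the whole 250 bases, 4 genes (Mrc1, F13a1, Stab1 and Cbr2) and 4 of 8 windows held the core. This compares with 23.3% of the 32851 windows of the same length of all genes. In Cbr2 the core began 79 bases before the RefSeq start, in the part that lies inside the annotated gene. The letters TGCTGA, part of the site of MAF factors, occurred in the Stab1 window alone, 43 bases before the start (16.1% of all windows). The letters TTCNNNGAA of STAT sites (7.02% of all windows) and TATAAA (12.4%) were in 0 of the 8 windows. All motifs were searched on both strands, and the end of a GAGGAA run can overlap a STAT site. A match is a run of letters and not a measured binding site.

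The 10 genes whose level over the 14 libraries was most like the mean of the 7 were found among 16100 genes with a mean of at least 1 CPM, by the Pearson correlation of log2(CPM + 0.1). They were Nacc2 (0.93), H2-Aa (0.93), H2-Ab1 (0.92), Ptgds (0.91), Ctsh (0.90), Lamb2 (0.90), H2-Eb1 (0.90), Cp (0.89), Emp3 (0.89) and Hspg2 (0.89), against a median of -0.03 over all these genes. H2-Aa, H2-Ab1 and H2-Eb1 encode chains of class II major histocompatibility molecules, and Ctsh a lysosomal protease. Lamb2 and Hspg2 encode components of basement membranes, and Ptgds a prostaglandin synthase of the meninges and choroid plexus. Without MRL-IRAK4-KD replicate 4, 5 of these 10 were again among the 10 most alike, and with group means removed 6 were. By list, the median correlation was 0.80 for the 5 red cell genes, 0.64 for 12 genes of meningeal fibroblasts, 0.61 for 15 genes of all macrophages and 0.57 for 8 endothelial genes. It was 0.53 for 9 further genes of border-associated macrophages above 1 CPM, 0.34 for 12 microglial genes, 0.30 for 10 choroid plexus genes and -0.08 for 8 genes of hippocampal neurons. Without MRL-IRAK4-KD replicate 4 these medians were 0.79, 0.68, 0.63 and 0.68, then 0.69, 0.48, 0.19 and -0.33, in the same order, so the further border-associated genes then lay level with the fibroblast and endothelial lists. These correlations are descriptions over libraries that share depth and composition.

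A further 28 genes of border-associated macrophages, from a list that holds chemokines, lectins and scavenger receptors, were read beside the 7. Their levels summed to 89.6 to 108 CPM in MRL, 84 to 103 in MRL-IRAK4-KD, 74 to 98.1 in C57BL6/J and 67.3 to 82.6 CPM in IRAK4-KD libraries. Most of this sum came from Maf (group means 28.9 to 35.8 CPM), Dab2 (9.71 to 13.4), Colec12 (8.26 to 11.6), Cd38 (8.58 to 11.4) and Slc40a1 (6.22 to 9.12). The sum therefore says little about the others. The highest MRL-IRAK4-KD value (103) was that of replicate 4 and the lowest IRAK4-KD value (67.3) that of replicate 3. With all 14 libraries none of the 28 passed the adjusted threshold in any of the 5 comparisons. By the edgeR log2 difference, 21 of 28 were higher in MRL than in MRL-IRAK4-KD mice (median 0.37) and 22 of 28 than in C57BL6/J mice (median 0.20). In each comparison 2 genes were at an unadjusted p below 0.05, both higher in MRL mice. Of all genes, 50.2 and 48.1% were higher and 11.4 and 5.55% were at that threshold. In IRAK4-KD mice 23 of 28 were lower than in C57BL6/J mice (median -0.38), 4 of them at that threshold, with 47% of all genes higher and 3.8% at the threshold. In MRL-IRAK4-KD mice 21 of 28 were higher than in IRAK4-KD mice (median 0.28), with 5 higher and 1 lower at that threshold, against 49.4% of all genes higher and 8.63% at the threshold. Without both libraries that stand apart, 24, 22, 9 and 16 of the 28 were higher in these comparisons, in the order given, with medians of 0.43, 0.20, -0.26 and 0.07. The number at the unadjusted threshold was then 5, 5, 4 and 2, against 8.73, 10.2, 5.67 and 6.8% of all genes.

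Tgfbi, an extracellular matrix protein induced by TGF-β, had the smallest p of the 28 between the lpr groups, with 4.85, 4.17, 4.15 and 5.33 against 3.27, 2.89, 3.52 and 3.07 CPM. These groups did not overlap, as for 5.26% of all genes, and the log2 difference was 0.54 ± 0.14 (edgeR, adjusted p = 0.335). Against C57BL6/J mice (3.26 to 3.67 CPM) it was 0.43 (edgeR, adjusted p = 0.82). The chemokine Ccl8 differed by 2.77 ± 1.25 (adjusted p = 0.439) through MRL replicate 4, which had 0.832 CPM against 0.0403 to 0.106 in the other MRL mice. For the lectin Clec12a the value was 1.20 (adjusted p = 0.44) and for Pf4 it was 0.40 (adjusted p = 0.543). Folr2 was at -0.03 (edgeR, adjusted p = 0.992), and at 0.62 without MRL-IRAK4-KD replicate 4 (adjusted p = 0.623). In MRL against C57BL6/J mice the MS4A family genes Ms4a6d and Ms4a6c, relatives of Ms4a7, were at 0.74 (edgeR, adjusted p = 0.778) and 0.76 (adjusted p = 0.899).

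Hpgd, which encodes the enzyme that inactivates prostaglandins, came closest to the threshold. It had 2.93, 2.64 and 2.26 CPM in IRAK4-KD mice, below all 11 other libraries. IRAK4-KD mice did not overlap with C57BL6/J mice for 11.2% of all genes, in either direction, and with MRL-IRAK4-KD mice for 8.74%. C57BL6/J mice had 5.02, 5.81 and 5.02 CPM, MRL-IRAK4-KD mice 5.84, 5.58, 3.86 and 4.42, and MRL mice 4.90 to 6.67. The log2 difference of Hpgd between IRAK4-KD and C57BL6/J mice was -1.02 ± 0.18 (edgeR, adjusted p = 0.053), and between MRL-IRAK4-KD and IRAK4-KD mice 0.92 ± 0.17 (edgeR, adjusted p = 0.104). All 3 IRAK4-KD libraries showed it. Without MRL-IRAK4-KD replicate 4 these Hpgd differences were -1.02 and 0.97 and passed the threshold (edgeR, adjusted p = 0.0134 and 0.0335). Without the library labelled IRAK4-KD replicate 3 they were -0.92 and 0.82 (adjusted p = 0.36 and 0.585), and without both -0.92 and 0.87 (adjusted p = 0.0898 and 0.169). The lectins Clec4n (-1.57, edgeR, adjusted p = 0.915) and Cd209g (-1.67, adjusted p = 1) were lower in IRAK4-KD than in C57BL6/J mice, at means of 0.0817 against 0.243 and 0.0786 against 0.251 CPM. Folr2 (1.17 ± 0.49) and Lilra5 (0.93), both with an adjusted p of 0.553, had higher means in MRL-IRAK4-KD than in IRAK4-KD mice. Folr2 was highest of all libraries in MRL-IRAK4-KD replicate 4 (1.35 CPM) and lowest in the library labelled IRAK4-KD replicate 3 (0.164 CPM). Without both libraries its difference was 0.24 (edgeR, adjusted p = 0.961) and that of Lilra5 0.92 (adjusted p = 0.769).

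**Figure D5:**
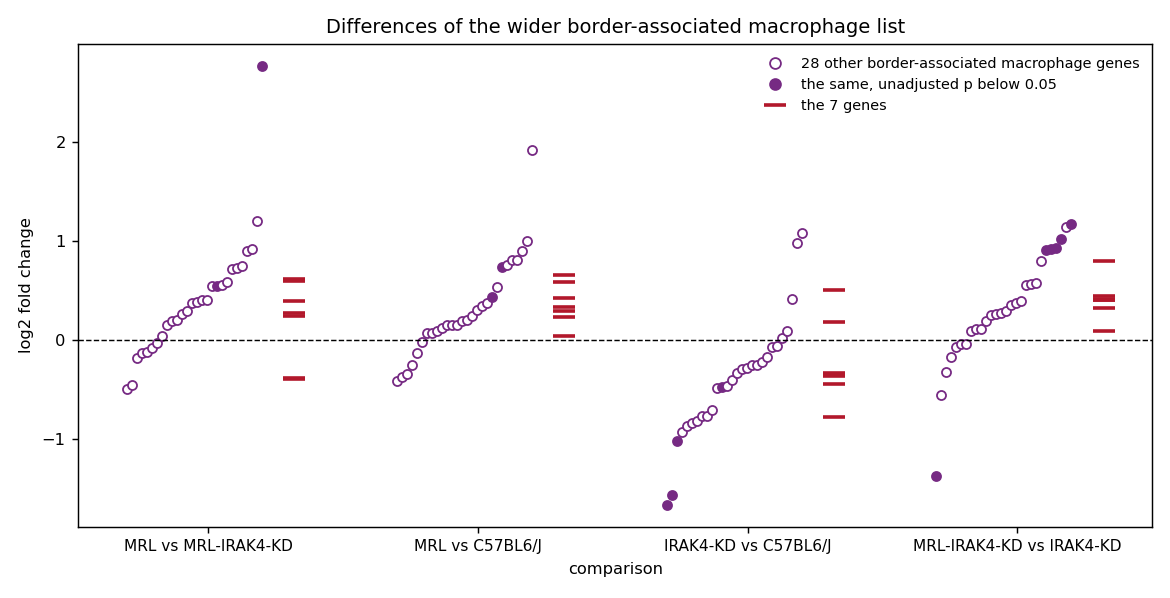
Log2 fold change from edgeR (y axis) of 28 further border-associated macrophage genes (points, filled where the unadjusted p was below 0.05) and of the 7 genes described here (bars) in the 4 comparisons of groups (x axis). Of the 28 points, 21, 22, 5 and 21 lie above 0 in the order MRL against MRL-IRAK4-KD, MRL against C57BL6/J, IRAK4-KD against C57BL6/J and MRL-IRAK4-KD against IRAK4-KD.

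Genes that all macrophages share and genes of microglia were also read, since microglia make up most macrophages of the parenchyma. No gene on these lists or on those below passed the adjusted threshold. Of 15 genes of all macrophages, 10 were higher in MRL than in MRL-IRAK4-KD mice (median 0.12; 4 at an unadjusted p below 0.05, all higher, against 11.4% of all genes). The smallest p was that of the surface receptor Adgre1, at 0.61 (edgeR, adjusted p = 0.393), while the phosphatase gene Ptprc was at 0.74 (adjusted p = 0.427) and Csf1r at 0.13 (adjusted p = 0.581). This list summed to 596 CPM in MRL-IRAK4-KD replicate 4 and to 368 to 395 in the other libraries of that group, and without that library all 15 were higher in MRL mice (median 0.35), 13 at the unadjusted threshold against 8.52% of all genes. All 15 were higher in MRL than in C57BL6/J mice (median 0.36), 6 at that threshold against 5.55% of all genes, among them the protease Ctss (0.53), Csf1r (0.36) and Spi1 (0.51), which encodes PU.1. Spi1 was also 0.66 higher in MRL-IRAK4-KD than in IRAK4-KD mice (edgeR, adjusted p = 0.327), where 7 of the 15 were at that threshold against 8.63% of all genes. The lowest sum of the list, 297 CPM, was that of the library labelled IRAK4-KD replicate 3, and without both libraries 2 of the 15 were at the threshold there, against 6.8%, with Spi1 at 0.46 (edgeR, adjusted p = 0.524). Of 12 microglial genes, 10 were higher in MRL than in MRL-IRAK4-KD and 12 than in C57BL6/J mice, with medians of 0.14 and 0.22 and 3 genes at that threshold in each, against 11.4 and 5.55% of all genes. Without MRL-IRAK4-KD replicate 4, 11 and 12 were higher and 6 in each were at the threshold, against 8.52 and 10.1%. With all libraries, 7 and 9 of 9 growth factor genes of macrophages and their receptors were higher in the same comparisons (medians 0.29 and 0.36). The 9 include Csf2, with group means of at most 0.00394 CPM, and Csf1r, which is also among the 15. Of 12 genes of haemoglobin and haem iron handling, to which Cd163 belongs, 5 and 10 were higher (medians -0.16 and 0.13). Of all genes, 50.2 and 48.1% were higher in these comparisons.

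Genes of other cells moved with some of these comparisons, and their part in the values of the 7 genes was not tested. All 10 monocyte and neutrophil genes were higher in MRL than in MRL-IRAK4-KD mice, with a median of 3.27, against 50.2% of all genes. All 10 were at an unadjusted p below 0.05, against 11.4% of all genes. They summed to 10.4, 36.6, 3.7 and 42 CPM in the MRL libraries, in the order of replicates. MRL-IRAK4-KD libraries had 1.58 to 6.04, C57BL6/J 1.93 to 4.36 and IRAK4-KD libraries 2.69 to 7 CPM, so MRL replicate 3 lay among them. Without replicate 4, the highest of its group, MRL-IRAK4-KD libraries had 1.58 to 2.27 CPM. Red cell genes summed to 83.9 to 369 CPM in MRL, 52.9 to 193 in MRL-IRAK4-KD, 43.6 to 93.6 in C57BL6/J and 19.8 to 55.3 CPM in IRAK4-KD libraries. Brain endothelial genes summed to 173 to 307, 115 to 154, 121 to 134 and 84.7 to 107 CPM in the same order. Of these, 8 of 8 were higher in MRL than in MRL-IRAK4-KD and lower in IRAK4-KD than in C57BL6/J mice. In these 2 comparisons 50.2 and 47% of all genes were higher. Both lists had their highest library among MRL and their lowest among IRAK4-KD mice. The same held for Mrc1, F13a1 and Stab1, for the sum of the 7 genes and for that of the further border-associated macrophage genes. Each of these lowest values, and those of both lists, was that of the library labelled IRAK4-KD replicate 3. Among the other libraries the lowest was MRL-IRAK4-KD replicate 4 for Mrc1 (2.15 CPM). It was C57BL6/J replicate 3 for F13a1 (1.32 CPM), for the sum of the 7 genes (17 CPM) and for that of the further genes (74 CPM). For Stab1 and both lists it was still a library of the IRAK4-KD group. Meningeal fibroblast genes summed to 154 to 270, 184 to 263, 158 to 348 and 106 to 209 CPM. Of these, 11 of 12 were lower in IRAK4-KD than in C57BL6/J mice (median -0.52), where 47% of all genes were higher. The library labelled IRAK4-KD replicate 3 had 106 CPM and the others of its group 206 and 209. Without it 10 of 12 were lower (median -0.24), where 46.5% of all genes were higher. Choroid plexus genes summed to 67.4 to 1680, 154 to 7800, 117 to 442 and 164 to 1460 CPM, and those of hippocampal neurons to 844 to 1170, 1010 to 2400, 890 to 1120 and 1140 to 1510 CPM. The 6 platelet genes summed to 3.5 to 15.5 CPM over all libraries. The highest sum was that of MRL-IRAK4-KD replicate 4, and the next was 7.04 CPM in C57BL6/J replicate 2. Between the lpr groups 2 of the 6 were higher in MRL mice and 4 lower, with 50.2% of all genes higher. Ppbp was at 5.02 on the log2 scale there (edgeR, adjusted p = 0.327), with group means of at most 0.328 CPM.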

How the data were processed

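Poly(A) RNA of 14 hippocampi was sequenced. Per the labels, libraries were made with a KAPA HyperPrep mRNA kit, whereas the study's methods name a SMART-seq preparation with single-end reads and the sequencing core's sheet lists paired reads. Alignment was to mm10 with HISAT2 2.1.0 and SAMtools 1.9, and the values deposited by the authors are raw counts of StringTie 2.1.0 for genes and for transcripts (versions from the submitters' processing notes). That tool works counts out from read coverage with a set read length, and totals were 1.40 to 2.08 counts per read, so that counts are not independent molecules. The annotation is not given in the sources used here, and the identifiers are those of GENCODE M21. Of 81881 features, 97 spike-ins and 26248 other features, with 0.0254 to 0.188% of the counts, were left out. The sheet of the sequencing core, as deposited, also gave reads and concentrations. 0 pairs of libraries of a group were identical.

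Here, edgeR 4.0.16 (R 4.3.3; quasi-likelihood, robust, TMM) was fitted once to the 4 groups over 38070 genes with at least 10 counts, with Benjamini-Hochberg adjustment over all of them at 0.05. Nothing in the labels says whether mice of a group came from separate litters or cages, and p-values measure the spread between these mice. Same-numbered mice were checked for pairing by the correlation of their deviations from group means, which ran from -0.25 to 0.37, and the numbers were not treated as pairs. Single genes were compared by exact permutation on log2(CPM + 0.1), and pairs of genes by 9999 permutations. The scripts were tested on simulated data. The differences of the 7 genes were recomputed with DESeq2 1.42.0, limma-voom (limma 3.58.1), RLE or library-size scaling, no filter, filterByExpr, only the groups compared, a replicate block, the transcript table, halved counts, each library left out and, added after values were seen, coding transcripts only and 2 libraries left out together. The wider lists were recomputed without those 2 libraries, also added after values were seen, and the search for similar genes under its own alternatives.

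The 7 genes and all lists were chosen with earlier results of these data known. From each list, the text names genes past the adjusted threshold, otherwise some or all of the 3 with the smallest p, and the defining genes. Genes that made up most of a list's sum are also named for the lymphatic and the further border-associated lists. Genes most like the 7 are the 10 with the highest correlation. Promoter windows of 250 bases are RefSeq's, GRCm38.p6. Python 3.11.15 and matplotlib 3.10.9 drew the figures.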

Additional observations from a re-analysis of the deposited data

Results flagged for a closer look

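In the groups of 4 mice, a library was looked at again where its gap to the nearest of the others, divided by the range of the group, was above Dixon's 95% critical value for groups of that size. Of 26 groups checked, the levels and retained-intron shares of the 7 genes gave 4 such values, and chance gives about 1 in 20. Groups of 3 mice were not checked. The Stab1 level of MRL-IRAK4-KD replicate 4, 17.6 CPM, lay above the next highest of its group, 12.5 CPM (ratio 0.848). The retained-intron share of Stab1 in the same library was 45.2%, against 7.57% in the next (ratio 0.95). For Mrc1 the retained-intron share of MRL-IRAK4-KD replicate 3 was 1.97% against 0.23% in the next (ratio 0.956). For Ms4a7 the retained-intron share of MRL replicate 4 was 7.8%, below the next lowest of its group, 19.8% (ratio 0.984).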

How the results depend on the processing

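Over 26 alternative settings (25 for the interaction), 0 of the 7 genes passed an adjusted p of 0.05 in any comparison, and 854 of 903 differences kept their direction. None of the 49 that turned was at an unadjusted p below 0.05. With limma-voom, Lyve1 between the lpr groups (MRL less MRL-IRAK4-KD) was 0.05, Cbr2 between MRL and C57BL6/J mice -0.09, and between MRL-IRAK4-KD and IRAK4-KD mice Lyve1 was 0 and Ms4a7 -0.03, with 0.07 for Stab1 in the interaction. With the 2 libraries that stand apart left out together, Lyve1 and Cbr2 between the lpr groups were 0.07 and 0.20, and Lyve1, Cbr2 and Ms4a7 between MRL-IRAK4-KD and IRAK4-KD mice -0.43, -0.16 and -0.21, with 0.20 for Cbr2, 0.17 for F13a1 and 0.13 for Stab1 in the interaction. By library size only, Cbr2 between MRL and C57BL6/J mice was -0.02, and the share of all genes higher in MRL mice was 38% against 48.1%. With coding transcripts only, Cbr2 between MRL and C57BL6/J mice was -0.01, Ms4a7 between IRAK4-KD and C57BL6/J mice 0 and Stab1 in the interaction 0.06.

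The replicate numbers were not treated as pairs. Not every pair of same-numbered mice deviated together, and 3 of 8, 2 of 6, 2 of 6 and 1 of 6 libraries correlated best with their own number. With so few mice per group this check cannot exclude a pairing. With the replicate number as a block, Cbr2 between MRL and C57BL6/J mice was -0.22 and Lyve1 between MRL-IRAK4-KD and IRAK4-KD mice -0.04. The block left 34, 0, 48, 23 and 2 genes of all past the adjusted threshold, against 37, 0, 56, 28 and 1, and 0 of the 7 in each comparison.

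Leaving out 1 library at a time turned a direction for the following. Between the lpr groups Lyve1 ran from -0.63 to 0.08, Cbr2 from -0.58 to 0.21 and F13a1 from -0.09 to 0.45. Between MRL and C57BL6/J mice Mrc1 ran from -0.05 to 0.50, Cbr2 from -0.15 to 0.54 and F13a1 from -0.03 to 0.52. Between IRAK4-KD and C57BL6/J mice Cbr2 ran from -0.73 to 0.13. Between MRL-IRAK4-KD and IRAK4-KD mice Cd163 ran from -0.01 to 0.16, Lyve1 from -0.15 to 0.70 and Ms4a7 from -0.01 to 0.67. In the interaction Mrc1 ran from -0.44 to 0.11, Lyve1 from -0.28 to 0.58, F13a1 from -0.43 to 0.14, Ms4a7 from -0.09 to 0.59 and Stab1 from -0.22 to 0.04.

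The number of the 7 at an unadjusted p below 0.05 was 0, 1, 1, 1 and 0 in the 5 comparisons as reported. Between the lpr groups it was 2 with limma-voom, 1 with the block, 1 with coding transcripts, 2 without both libraries and 0 to 2 with 1 library left out, where 15.4, 9.32, 12.9, 8.73 and 6.98 to 15.5% of all genes were. Between MRL and C57BL6/J mice it was 3 with limma-voom, 2 without both libraries and 1 to 2 with 1 left out, beside 12.1, 10.2 and 3.87 to 10.1% of all genes. Between IRAK4-KD and C57BL6/J mice it was 0 with filterByExpr, 0 without both libraries and 0 to 2 with 1 left out (3.77, 5.67 and 2.49 to 6.96% of all genes). Between MRL-IRAK4-KD and IRAK4-KD mice it was 0 by library size only, with limma-voom, with coding transcripts and without both libraries, and 0 to 1 with 1 left out (7.89, 12.5, 9.01, 6.8 and 4.45 to 11.9% of all genes). In the interaction it was 1 with coding transcripts (Cd163) and 0 to 1 with 1 left out, against 3.8 and 2.91 to 6% of all genes. Over all genes, DESeq2 put 395, 197, 166, 283 and 59 past the adjusted threshold where edgeR put 37, 0, 56, 28 and 1, and limma-voom 213, 38, 145, 275 and 22. Of the 10 genes most like the 7, 6 were again among the 10 with group means removed, 5 by Spearman's rho, 6 above a mean of 5 CPM and 5 without MRL-IRAK4-KD replicate 4 and 8 without the library labelled IRAK4-KD replicate 3. The cause of these shifts was not tested. Depth limits Ms4a7 most, with 90 counts in its lowest library.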
